A study of Mus musculus with 18 samples.

Results

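The 7 genes described here, Vpreb1, Vpreb3, Igll1, Ighm, Cd79a, Cd79b and Ebf1, mark the early stages of B cell development, and they were chosen by symbol in the deposited expression table. Each is represented by 1 probe set, so they make up 7 of 10335 probe sets and 7 of the 9636 genes in the table. Shares of all probe sets given below are shares of this table. Whether it holds every probe set of the array type was not checked. The arrays profiled primitive marrow cells, sorted as Lin-Kit+, from Balb/c mice in which a JAK2V617F retrovirus with a GFP tag had induced a myeloproliferative neoplasm (MPN). Marrow pooled from several mice in each experiment was cultured for 16 h in medium with IL-3 (50 ng/mL) and SCF (100 ng/mL), with a blocking antibody (BA) against TNF receptor 1 (TNFR1) or 2 (TNFR2) at 10 μg/mL or with neither, and was sorted by GFP only after the culture. The 6 groups of 3 arrays were TNFR1 BA JAK2V617F+, TNFR1 BA JAK2V617F-, TNFR2 BA JAK2V617F+, TNFR2 BA JAK2V617F-, Untreated JAK2V617F+ and Untreated JAK2V617F-. JAK2V617F+ means GFP+ and JAK2V617F- means GFP-, so the JAK2V617F- cells came from the same diseased marrow and not from healthy mice. One array, Untreated JAK2V617F+ replicate 3, failed the quality thresholds of the study and was left out of every fit, which leaves 17 arrays and 2 in that group. No age of the mice was found in the sources used here.

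B cells arise in the marrow through ordered stages. Pro-B cells rearrange the immunoglobulin heavy chain, and pre-B cells display that chain together with a surrogate light chain, which stands in until a true light chain is made. Vpreb1 and Igll1 (lambda 5) encode the parts of the surrogate light chain, and Vpreb3 encodes a related protein that binds immunoglobulin chains inside the cell. Ighm encodes the mu heavy chain, Cd79a and Cd79b encode the signalling pair of the pre-B and B cell receptors, and Ebf1 is a transcription factor that commits progenitors to the B lineage. Kit is present on early lymphoid progenitors and is lost as pre-B cells mature. The lineage depletion before the sort is meant to remove mature B cells, and whether it also removes B cell progenitors was not checked.

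The promoter windows of the surrogate light chain genes, Vpreb3 and Cd79a are shown because their products act together in the pre-B cell receptor or its assembly, and genes of this set are known to be bound by early B cell transcription factors. RefSeq windows (GRCm38.p6, the build of all coordinates given here) matched 5 of the 7 genes. Cd79b and Ighm were not matched, and for Ebf1, with more than 1 start site, no motif was found. Each window holds the 250 bases before the annotated start, 5′ to 3′ on the strand of the gene. For Vpreb3 the start used, chr10:75948300, lies inside the annotated gene span of chr10:75943024-75949657, and its motif positions refer to that start. The reference is not Balb/c sequence. Capitals mark 3 motifs searched on both strands, the octamer ATTTGCAT bound by POU factors, the E-box CAGNTG bound by E proteins such as E2A, which on the opposite strand reads CANCTG, and CCCNNGGG, a core of the EBF site. The Vpreb1 window lies at chr16:16869256-16869505 on the minus strand, the Igll1 window at chr16:16863986-16864235 on the minus strand, the Vpreb3 window at chr10:75948050-75948299 on the plus strand and the Cd79a window at chr7:24897247-24897496 on the plus strand.
Vpreb1: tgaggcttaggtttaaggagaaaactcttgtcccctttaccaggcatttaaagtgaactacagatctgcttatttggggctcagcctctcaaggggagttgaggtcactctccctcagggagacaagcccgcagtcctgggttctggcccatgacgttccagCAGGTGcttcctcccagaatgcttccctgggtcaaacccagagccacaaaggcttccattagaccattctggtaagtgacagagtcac
Igll1: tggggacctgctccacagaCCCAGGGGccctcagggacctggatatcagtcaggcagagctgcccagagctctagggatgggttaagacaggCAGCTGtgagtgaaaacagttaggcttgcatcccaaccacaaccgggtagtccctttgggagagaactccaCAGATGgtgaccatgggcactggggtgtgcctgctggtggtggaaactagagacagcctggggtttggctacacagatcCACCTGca
Vpreb3: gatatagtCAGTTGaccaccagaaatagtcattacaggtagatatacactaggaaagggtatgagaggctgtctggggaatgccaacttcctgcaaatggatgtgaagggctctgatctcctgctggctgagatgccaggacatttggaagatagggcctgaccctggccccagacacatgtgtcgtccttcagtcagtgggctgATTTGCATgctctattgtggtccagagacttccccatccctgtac
Cd79a: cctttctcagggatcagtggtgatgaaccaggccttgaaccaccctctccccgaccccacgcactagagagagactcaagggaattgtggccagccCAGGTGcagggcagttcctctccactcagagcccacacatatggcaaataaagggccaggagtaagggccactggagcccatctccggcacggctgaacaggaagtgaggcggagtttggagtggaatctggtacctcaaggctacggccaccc
Vpreb1 and Cd79a each held 1 E-box, CAGGTG in both, at 88 to 83 and at 154 to 149 bases before the start. Igll1 held 3 E-boxes and 1 CCCNNGGG match at 231 to 224 bases before its start. Vpreb3 held an octamer at 45 to 38 bases before its start and 1 E-box. Of 32851 mouse promoter windows of the same length, 1.6% held the octamer, 11.8% CCCNNGGG and 44.8% the E-box, so an E-box alone is a common match. A match of letters is not evidence of binding.

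Values are deposited log2 signals, where 1 unit is a doubling. The lowest value of each of the 18 arrays was 2.22, a floor below which no signal was given, and the table has no detection calls. A signal at or near 2.22 is therefore not a measured level, and a single difference between a measured signal and one at the floor is a lower bound on its size, which does not hold for group means with floor values on both sides. Of 119 member values in the 17 arrays, 70 were under 3 and 42 were over 4. The medians of the 17 arrays were 7.41 to 7.75, against 6.05 for the array left out. Jak2 had lowest, median and highest signals of 5.73, 8.78 and 10.77 in JAK2V617F+ arrays and 6.0, 8.33 and 9.94 in JAK2V617F- arrays, which overlap and do not separate the genotypes. Kit, on which the cells were sorted, had lowest, median and highest signals of 3.71, 7.47 and 9.95 in JAK2V617F+ arrays and 4.19, 7.83 and 9.20 in JAK2V617F- arrays, so some arrays of both genotypes had a low signal of it. In bulk RNA, fewer B lineage cells and less RNA of a gene per cell cannot be told apart.

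Vpreb1 (chr16:16868401-16869255) was at 2.22, 9.37 and 2.22 in replicates 1, 2 and 3 of TNFR1 BA JAK2V617F+ cells, against 11.91, 10.70 and 2.22 in TNFR1 BA JAK2V617F- cells. In TNFR2 BA cells it was at 2.59, 8.36 and 2.22 in JAK2V617F+ and at 11.51, 10.93 and 2.22 in JAK2V617F- arrays. Untreated JAK2V617F+ arrays 1 and 2 were at 2.22 and 7.24, and Untreated JAK2V617F- arrays were at 10.31, 9.77 and 2.25. Vpreb1 was thus high in replicates 1 and 2 of JAK2V617F- cells, high in only replicate 2 of JAK2V617F+ cells, and at or near the floor in replicate 3 of both. Signals over 4 were found in 3 of 8 JAK2V617F+ and 6 of 9 JAK2V617F- arrays, and each JAK2V617F+ array of replicate 2 was below each JAK2V617F- array of that number.

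Vpreb3 (chr10:75943024-75949657) was lower and present in fewer arrays. It did not exceed 2.43 in any of the 8 JAK2V617F+ arrays. In JAK2V617F- cells it was at 6.10, 5.54 and 2.23 with TNFR1 BA, at 6.36, 2.23 and 2.23 with TNFR2 BA, and at 5.63, 4.21 and 2.22 without antibody. The 5 arrays over 4 were therefore all JAK2V617F- and all of replicates 1 and 2, while the remaining 4 JAK2V617F- arrays overlapped the JAK2V617F+ arrays.

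Igll1 (chr16:16860671-16863985) was the most widely seen member, with signals over 4 in 6 of 8 JAK2V617F+ and 7 of 9 JAK2V617F- arrays. Its probe set carries the _x_at suffix, which means that some of its probes may also match other sequences. In replicates 1, 2 and 3 it was at 3.80, 5.96 and 4.87 in TNFR1 BA JAK2V617F+ cells and at 10.19, 7.10 and 10.35 in TNFR1 BA JAK2V617F- cells. TNFR2 BA JAK2V617F+ arrays were at 3.02, 9.15 and 8.48, and TNFR2 BA JAK2V617F- arrays at 10.23, 9.63 and 2.97. Untreated JAK2V617F+ arrays 1 and 2 were at 8.08 and 8.65, against 10.95, 8.37 and 2.97 in Untreated JAK2V617F- arrays. The genotypes did not overlap under TNFR1 BA and overlapped under TNFR2 BA and without antibody. How many of all probe sets separate in this way was not counted, and groups of 3 arrays can separate by chance. The TNFR1 BA by genotype interaction of Igll1 was not called (limma, adjusted p = 0.943). Unlike Vpreb1, its partner in the surrogate light chain, Igll1 was also found over 4 in 3 of 5 replicate 3 arrays.

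Ighm (chr12:113418826-113422730) followed neither pattern. It was at 7.62, 2.22 and 12.58 in TNFR1 BA JAK2V617F+ cells and at 9.33, 2.22 and 8.27 in TNFR1 BA JAK2V617F- cells. TNFR2 BA JAK2V617F+ arrays were at 2.22, 2.22 and 11.07, and TNFR2 BA JAK2V617F- arrays at 2.24, 2.22 and 2.22. Untreated JAK2V617F+ arrays 1 and 2 were at 4.31 and 2.22, and Untreated JAK2V617F- arrays at 9.44, 2.22 and 2.22. Ighm was at the floor in all 6 arrays of replicate 2, where Vpreb1 was high throughout, and its highest signals were those of replicate 3 JAK2V617F+ cells, where Vpreb1 was at the floor. Over the 17 arrays, Pearson's r between Vpreb1 and Ighm was -0.27, as a description of arrays that share experiments. The array left out also had a high Ighm signal, 12.50.

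The signalling pair was mostly near the floor. Cd79a (chr7:24897497-24901858) was at 2.22 in 7 of 8 JAK2V617F+ arrays, and Untreated JAK2V617F+ replicate 2 was at 5.16. In JAK2V617F- cells it was at 6.88, 2.22 and 2.22 with TNFR1 BA, at 7.54, 2.22 and 2.22 with TNFR2 BA, and at 3.64, 6.25 and 2.22 without antibody. Cd79b (chr11:106311341-106314562) ran between 2.22 and 3.15 in the JAK2V617F+ arrays. It was at 2.28, 3.54 and 3.16 in TNFR1 BA JAK2V617F-, at 2.28, 4.42 and 2.36 in TNFR2 BA JAK2V617F- and at 6.74, 4.16 and 2.34 in Untreated JAK2V617F- arrays. Although their proteins form a dimer, the signals of Cd79a and Cd79b hardly varied together (r = 0.04 over 17 arrays).

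Ebf1 (chr11:44618100-45008096) exceeded 4 in 1 of 17 arrays, TNFR2 BA JAK2V617F- replicate 2, at 5.89. The 8 JAK2V617F+ arrays were at 2.22 to 2.49. The other JAK2V617F- arrays were at 2.22 to 3.05, so the genotypes overlapped. Ebf1 was thus at 3.05 or below in 5 of the 6 JAK2V617F- arrays with a high Vpreb1 signal.

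**Figure D1:**
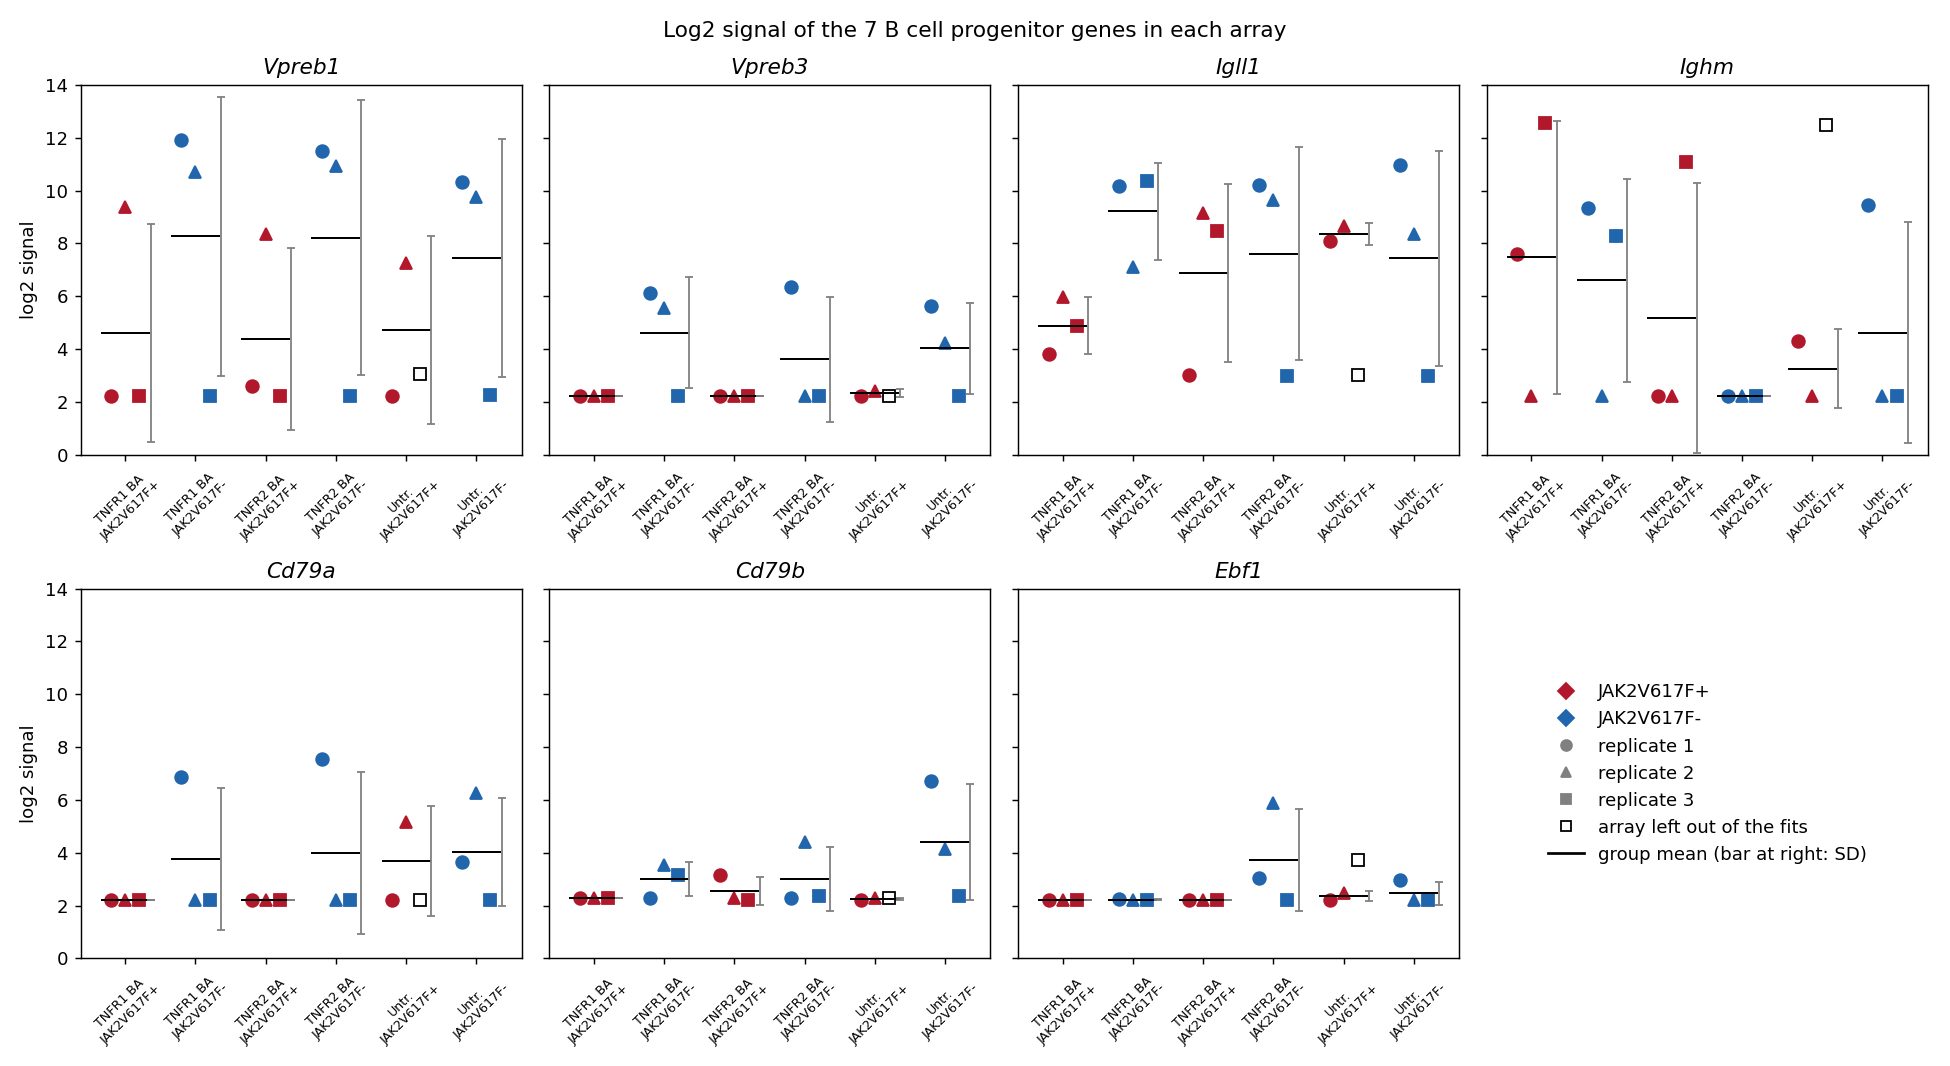
Log2 signal (vertical axis) of each of the 7 genes in the 6 groups (horizontal axis), with 1 marker per array, shaped by replicate number, the group mean as a line and the SD as a bar at its right. Vpreb1 is at 7.24 to 11.91 in replicate 1 and 2 arrays of JAK2V617F- cells and replicate 2 arrays of JAK2V617F+ cells, and the open square is the array left out of the fits.

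Averaged over treatments, 6 of the 7 genes had lower means in JAK2V617F+ than in JAK2V617F- cells. The median of the 7 differences was -1.23, against 1.36e-04 over all probe sets, of which 50.0% were below 0. None passed limma's test at an adjusted p of 0.05, adjusted by Benjamini-Hochberg over the 10335 probe sets, of which 0.358% passed (0.300% higher and 0.0581% lower). At an unadjusted p of 0.05, 1 of the 7 passed, against 10.3% of all probe sets. With the replicate number as a block 0 passed after adjustment and 2 before it, against 0.648% and 11.5% of all probe sets.

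Vpreb1 averaged 4.55 ± 3.18 in JAK2V617F+ and 7.98 ± 4.36 in JAK2V617F- arrays (SD, n = 8 and 9). Its fitted difference was -3.41 (SE 1.83, adjusted p = 0.525), which is smaller than the SD within JAK2V617F- arrays. Vpreb3 averaged 2.25 ± 0.07 in JAK2V617F+ and 4.08 ± 1.86 in JAK2V617F- arrays, with a difference of -1.83 (SE 0.72, adjusted p = 0.391) and the lowest unadjusted p of the 7 genes, 0.0208 by limma. All 8 JAK2V617F+ arrays and 4 of the 9 JAK2V617F- arrays lie at or near the floor, so this difference is not a bound in either direction. Without replicate 1 the difference was -0.24 for Vpreb1 and -0.82 for Vpreb3, and without replicate 3 it was -5.52 for Vpreb1 and -2.76 for Vpreb3.

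For Igll1 the means were 6.50 ± 2.40 in JAK2V617F+ and 8.08 ± 3.12 in JAK2V617F- arrays, and for Ighm they were 5.55 ± 4.31 in JAK2V617F+ and 4.49 ± 3.41 in JAK2V617F- arrays. Ighm was the only member with a higher mean in JAK2V617F+ cells, with a fitted difference of 0.81 (SE 1.63, adjusted p = 0.899). This sign rests on the 2 replicate 3 JAK2V617F+ arrays, since the difference was -0.037 without TNFR1 BA JAK2V617F+ replicate 3, -0.17 without TNFR2 BA JAK2V617F+ replicate 3 and -1.15 without replicate 3. The differences of Igll1 (-1.38) and Cd79a (-1.23) were above 0 without replicate 1, at 0.73 and 0.31. Cd79b differed by -1.12 (SE 0.58, adjusted p = 0.511) and Ebf1 by -0.54 (SE 0.47, adjusted p = 0.724).

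Both genotypes were sorted from the same cultures, but the labels do not say that arrays of 1 replicate number share a culture. With the number read as the experiment, each JAK2V617F+ array was also set against the JAK2V617F- array of the same treatment and replicate number. There were 8 such pairs, from 3 experiments, so pairs of 1 number are not independent of each other. Vpreb1 was lower in the JAK2V617F+ array in 6 of 8 pairs and within 0.1 in the remaining 2, with a mean difference of -4.14 (two-sided exact sign-flip permutation test, p = 0.0313). Vpreb3 was lower in 5 pairs, within 0.1 in 3 and higher in 0, with a mean difference of -2.07 (exact p = 0.0078, the smallest that 8 pairs can give). That p rests on the signs of the 3 pairs with both arrays at the floor, and with them set to ties, a choice made after the values were seen, the exact p of Vpreb3 was 0.0625. Cd79b was lower in 6 of 8 pairs (mean -1.24, exact p = 0.0391, and 0.0469 with ties), and these small differences lie partly at the floor. The exact p was 0.125 for Cd79a (mean -1.56), 0.156 for Igll1 (-2.22), 0.188 for Ebf1 (-0.63, and 0.25 with ties) and 0.75 for Ighm (0.79). These 7 p-values are not adjusted. The test flips the 8 pairs as if they were independent, so its p-values do not hold at the level of the 3 experiments.

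The pairs did not contribute alike. For Vpreb1 the mean pair difference was -8.90 in replicate 1, -2.14 in replicate 2 and 0 in replicate 3, where both genotypes were at the floor. Vpreb3 had -3.80 in replicate 1 and -1.71 in replicate 2, and Cd79a had -3.80 and -0.36. Igll1 differed by -5.49 in replicate 1, -0.44 in replicate 2 and 0.01 in replicate 3, where 1 pair lay far above 0 and 1 far below. Ighm differed by -2.29, 0 and 6.58. A limma test of whether the genotype difference varied with the replicate number was prompted by these values. It passed for 0 of the 7 members after adjustment (lowest adjusted p = 0.513, Vpreb1) and for 4 before it, against 0% and 5.97% of all probe sets.

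**Figure D2:**
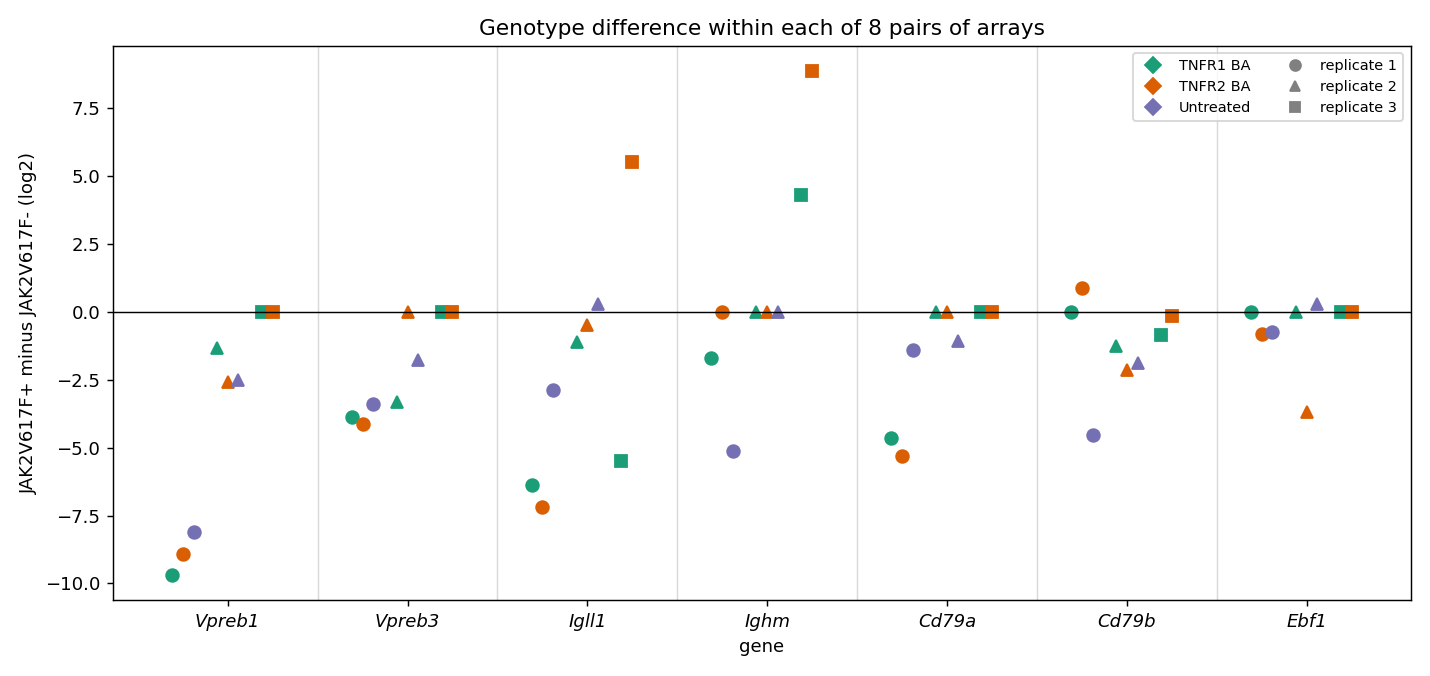
JAK2V617F+ minus JAK2V617F- difference in log2 signal (vertical axis) for each gene (horizontal axis) in 8 pairs of arrays, with 1 marker per pair, shaped by replicate number and coloured by treatment. The replicate 1 pairs of Vpreb1 average -8.90 and its replicate 3 pairs lie at 0, while both replicate 3 pairs of Ighm lie above 0.

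The replicate number itself was tested as an effect, beside the groups. Vpreb1 had means of 6.79, 9.40 and 2.22 over the arrays of replicates 1, 2 and 3, and it was the only member that passed (limma F-test, adjusted p = 0.0248). Passing calls took in 1.20% of all probe sets after adjustment and 12.8% before it, and 3 of the 7 members passed before it. The call for Vpreb1 was lost without replicate 2 (adjusted p = 0.319), without replicate 3 (0.857) and in 7 of the 17 fits that left out a single array. Vpreb3 means were 4.13, 3.14 and 2.22 (adjusted p = 0.377), and Ighm means were 5.86, 2.22 and 7.27 (adjusted p = 0.307). Cd79a, Cd79b and Ebf1 were also at or near the floor in every replicate 3 array used, with 3.16 as the highest value among them.

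Granulocyte genes moved with the replicate number too. Their mean signal over 8 measured markers was 12.61 to 13.02 in replicate 1, 10.44 to 11.76 in replicate 2 and 12.72 to 13.33 in replicate 3, and 4 of the 8 passed the test for the replicate number, among them Camp and Ltf, which encode granule proteins. Replicate 2, with the lowest granulocyte signals, was the one in which Vpreb1 was high in both genotypes, and replicates 1 and 3, with high granulocyte signals, had Vpreb1 in JAK2V617F- cells at 10.31 to 11.91 in replicate 1 and at 2.22 to 2.25 in replicate 3. Mast cell and basophil markers ran by genotype, with a mean over 8 markers of 11.32 to 12.52 in JAK2V617F+ and 6.52 to 8.75 in JAK2V617F- arrays, and 5 of the 8 passed as higher in JAK2V617F+ cells. Of 7 erythroid markers, 7 were above 0 and 2 passed, Car2 (1.47) and Ermap (2.87), with a list mean of 7.55 to 11.04 in JAK2V617F+ and 6.32 to 8.47 in JAK2V617F- arrays. Of 3 T and NK cell markers 1 passed, Gzmb (1.52), which encodes a granule protease. The remaining T and NK cell markers, Cd8a (-0.81) and Nkg7 (-0.90), were lower in JAK2V617F+ cells and were not called. The part of these cell types in the results for the B cell genes was not tested.

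**Figure D3:**
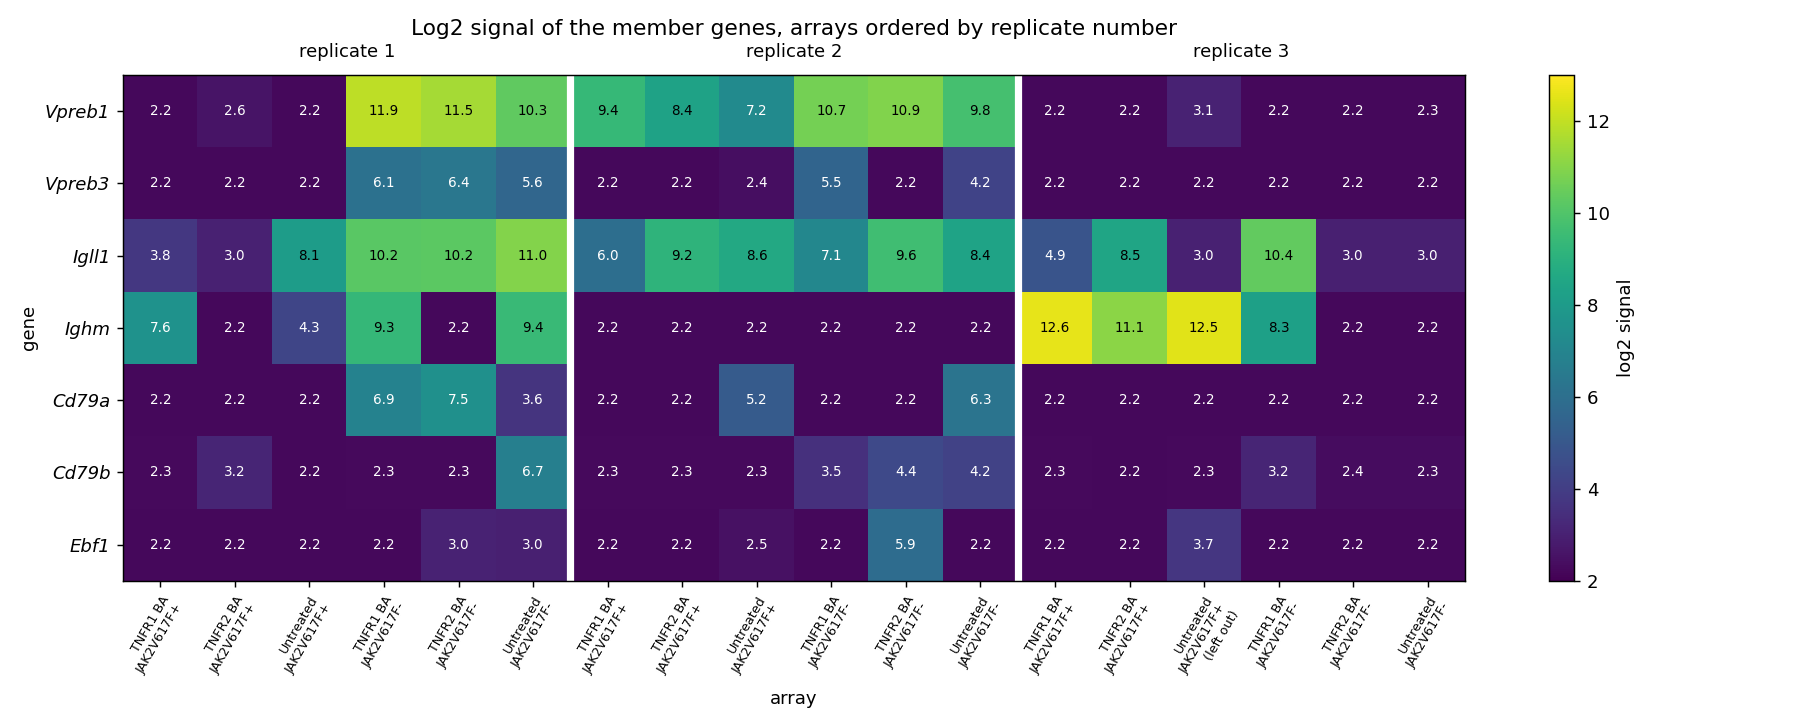
Log2 signal (colour and printed value) of the 7 genes (rows) in the 18 arrays (columns), ordered by replicate number and then by genotype. Vpreb1 is over 7 in all 6 replicate 2 arrays and at 2.22 to 3.07 in all 6 replicate 3 arrays, and Ighm is at 2.22 in replicate 2 and at 11.07 to 12.58 in replicate 3 JAK2V617F+ cells.

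Within single treatments, the JAK2V617F+ minus JAK2V617F- differences of the 7 genes ran between -4.33 and 2.94. In each of the 3 treatments 6 of 7 were below 0, against 45.3% of all probe sets with TNFR1 BA, 50.5% with TNFR2 BA and 53.1% without antibody. The gene above 0 was Ighm with either antibody and Igll1 (0.93) without antibody. With TNFR1 BA, Ebf1 (-0.0090) lay at 2.22 to 2.24 in every array of both genotypes, so its sign is not that of a measured difference. The members' medians were -1.55 with TNFR1 BA, -1.38 with TNFR2 BA and -1.36 without antibody. None of the 21 tests passed (limma, lowest adjusted p = 0.684), and 0 passed at an unadjusted p of 0.05, against 0.0677% of all tests after adjustment and 6.39% before it. With the replicate block 0 passed after adjustment and 3 before it, against 0.0903% and 7.41% of all tests. Igll1 under TNFR1 BA had the most negative difference, -4.33 (SE 2.09, adjusted p = 0.803), and Ighm under TNFR2 BA the most positive, 2.94 (SE 2.71, adjusted p = 0.952).

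The study asked whether blocking either TNF receptor reverses expression differences between the genotypes. For the B cell genes, no response to either antibody could be called. The 28 differences from untreated cells ran between -3.48 and 4.21, 0 passed limma's test before or after adjustment, against 4.56% and 0.00968% of all tests. Igll1 with TNFR1 BA in JAK2V617F+ cells gave the lowest (-3.48, SE 2.34, adjusted p = 0.865), and Ighm in the same comparison the highest (4.21, SE 3.03, adjusted p = 0.876). Vpreb1 averaged 4.60 ± 4.13 in TNFR1 BA, 4.39 ± 3.44 in TNFR2 BA and 4.73 ± 3.55 in untreated JAK2V617F+ arrays (SD, n = 3, 3 and 2). In JAK2V617F- arrays it averaged 8.27 ± 5.28 with TNFR1 BA, 8.22 ± 5.21 with TNFR2 BA and 7.44 ± 4.51 untreated (SD, n = 3 each), so that treatments differed far less than replicates of 1 treatment.

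Between the antibodies, the 14 TNFR2 BA minus TNFR1 BA differences ran between -4.38 (Ighm in JAK2V617F- cells) and 2.01 (Igll1 in JAK2V617F+ cells), and 0 passed before or after adjustment (limma), against 4.03% and 0% of all tests. The 14 interaction terms, which set the antibody effect in JAK2V617F+ against that in JAK2V617F- cells, ran between -5.27 (Igll1, TNFR1 BA) and 4.31 (Ighm, TNFR2 BA). Again 0 passed, before or after adjustment, against 4.53% and 0% of all tests. The 95% confidence intervals reached up to 7.15 to either side for the antibody effects and 9.59 for the interactions, so differences of several log2 units would have gone uncalled. All comparisons with untreated cells share the same untreated arrays.

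Among themselves, Vpreb1 and Vpreb3 varied together most closely over the 17 arrays (r = 0.73), followed by Vpreb3 with Cd79a (0.72), Vpreb1 with Igll1 (0.62) and Vpreb1 with Cd79a (0.60). Ighm had r between -0.27 and 0.18 with the other 6 genes. These correlations are descriptions, since the arrays share cultures and many values lie at the floor. When each gene was centred on its own mean and the 7 were averaged, the probe sets most like this average among 7078 variable ones were those of Snx8 (r = 0.84), Lef1 (0.82), BC064078 (0.82), Klrd1 (0.80), Klf4 (0.79), Ctss (0.79), Siglech (0.78), Ccdc71l (0.78), Snx19 (0.77) and Ms4a6d (0.75).

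Other genes of the B lineage were read from 5 lists with 32 measured genes of 55 listed. None of the 32 passed for the genotype over treatments without the block (limma, lowest adjusted p = 0.0673), while 10 passed before adjustment, against 10.3% of all probe sets, with 7 of them lower and 3 higher in JAK2V617F+ cells. Of the 32, 18 were below 0, near the 50.0% of all probe sets. With the replicate block 3 passed, against 0.648% of all probe sets, and these 3 were lower in JAK2V617F+ cells. Several defining B lineage genes, among them Pax5, Rag1 and Rag2, were not analysed here.

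Lef1, a transcription factor of lymphoid progenitors, had lowest, median and highest signals of 2.45, 2.45 and 4.71 in JAK2V617F+ and 2.45, 9.10 and 10.62 in JAK2V617F- arrays. The 2 JAK2V617F- arrays that overlapped the JAK2V617F+ arrays, at 2.45 with TNFR2 BA and 2.53 untreated, were both of replicate 3. Its difference was -4.90 (SE 1.18, adjusted p = 0.0924 by limma, and 0.0141 with the replicate block, at -5.29). Dntt, which encodes terminal transferase and adds bases at the joints of rearranging antigen receptor genes, had 2.65, 4.34 and 8.40 in JAK2V617F+ and 3.56, 10.20 and 11.06 in JAK2V617F- arrays. Dntt differed by -4.33 (adjusted p = 0.156, and 0.0144 with the block, at -4.75), with each JAK2V617F+ array below the JAK2V617F- array of its pair. Of the 4 antigen receptor assembly genes measured, 2 were below 0 (median -0.34). Beside Dntt these were Lig4 (-0.72), Prkdc (0.04) and Xrcc6 (0.47), which were not called. Spib, an Ets family factor of B cells and plasmacytoid dendritic cells, had 2.31, 2.56 and 4.82 in JAK2V617F+ and 2.82, 7.44 and 8.39 in JAK2V617F- arrays, with a difference of -3.65 (adjusted p = 0.0673, and 0.0238 with the block, at -3.85).

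Of the 13 transcription factors measured, 10 were below 0 (median -1.56), among them Ikzf3 (-3.61, adjusted p = 0.308), Pou2af1 (-3.30, 0.346) and Irf4 (-2.89, 0.308), none of these 3 called. Of 6 lymphoid progenitor receptors measured, 3 were below 0 (median -0.35) and none was called. Il7r, the receptor for the main growth factor of mouse pro-B cells, was at -2.23 (adjusted p = 0.489), and Flt3 at -2.06 (0.492). Cd93 was at -0.79, while Cd24a (0.42), Kit (0.21) and Cd34 (0.08) were above 0. Of the signalling genes downstream of the pre-B cell receptor, 6 of 7 were above 0 (median 0.40). Btk was at 1.24 (0.472) and Plcg2 at 0.90 (0.338), and none of the 7 was called. Btk and Plcg2 are also used by mast cells and other myeloid cells. Of the immunoglobulin genes, Igk was at -2.15 (0.509) and Jchain, which joins secreted IgM and IgA, at -1.56 (0.539).

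Of 14 mature B cell and plasma cell markers listed, 8 were measured and 1 passed, against 0.358% of all probe sets. By the fitted difference 7 of the 8 were below 0 (median -1.01), against 50.0% of all probe sets. H2-Aa, a class II antigen presentation gene shared with dendritic cells and macrophages, was lower in JAK2V617F+ cells, at 8.64 ± 1.53 in JAK2V617F+ and 11.67 ± 1.0 in JAK2V617F- arrays (SD, n = 8 and 9), with a difference of -3.02 (limma adjusted p = 0.0352). Cd74 (-2.05, limma adjusted p = 0.311), H2-Eb1 (-2.15, 0.347) and H2-Ab1 (-1.83, 0.534) were also lower in JAK2V617F+ cells and were not called. Prdm1 and Sdc1, markers of plasma cells, were close to the floor. Prdm1 averaged 2.87 in JAK2V617F+ and 2.82 in JAK2V617F- arrays, and Sdc1 averaged 2.92 in JAK2V617F+ and 2.87 in JAK2V617F- arrays. Xbp1, on the same list, was far above the floor, at 11.61 in JAK2V617F+ and 11.80 in JAK2V617F- arrays.

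**Figure D4:**
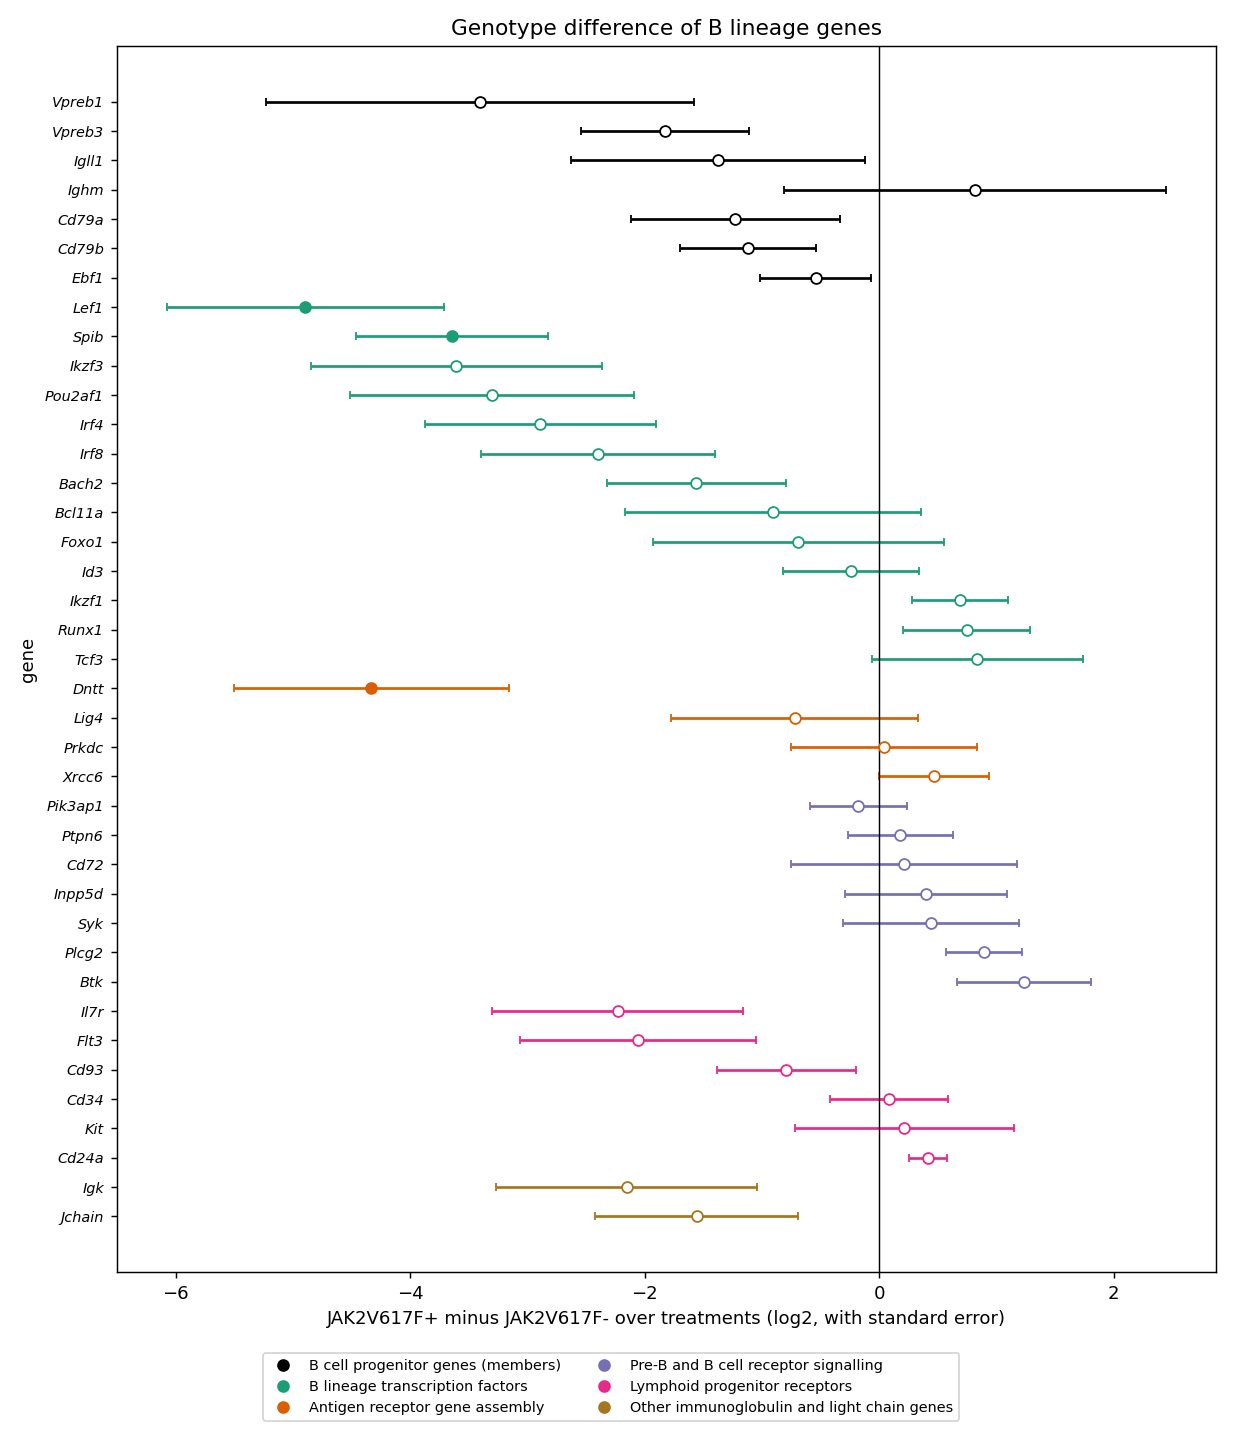
JAK2V617F+ minus JAK2V617F- difference over treatments in log2 signal (horizontal axis, with the standard error as a bar) for the 7 members and the 32 measured genes of 5 B lineage lists (rows, coloured by list). Filled markers are the 3 genes that passed with the replicate block, Lef1 (-4.90), Dntt (-4.33) and Spib (-3.65), and all values are those without the block.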

How the data were processed

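RNA of 18 samples in 6 groups was hybridized to Affymetrix mouse arrays. Per the labels, the deposited values are log2 signals from Affymetrix Expression Console, 1 for each probe set. They were used unchanged. How they were normalized was not found in the sources used here. Symbols were those of GEO's platform annotation, and of several probe sets for 1 gene the brightest on average stood for it. Comparisons used limma 3.58.1 in R 4.3.3 on 17 arrays, with 6 group means, variances moderated along a trend, and p-values adjusted by Benjamini-Hochberg over all probe sets. The paper describes 3 independent experiments, so the replicate number was read as the experiment. Deviations from group means correlated by 0.0083, 0.0714 and 0.144 within replicates 1, 2 and 3 and by -0.0328 between numbers, and blocked values stand beside the results they change. The members and gene lists were chosen with earlier results of these data known. All 7 members are named, with listed B lineage genes that passed a test or had the largest differences and the 10 probe sets most alike. Probe sets most alike needed an SD of at least 1. The fits were checked on simulated data, drawn with normal noise and without a floor or shared experiments. That check does not cover these features of the data. Alternatives were the replicate block, all 18 arrays, fits limited to the groups compared, a quantile scaling, a filter that dropped probe sets with a mean under 5, array weights, variances without a trend, the methods' paired t-test and leave-one-out.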

Additional observations from a re-analysis of the deposited data

Results flagged for a closer look

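In 6 of 14 sets of arrays of 1 gene and 1 genotype, a single array stood apart from the rest by Dixon's test at its 1 in 20 limit. That limit assumes values without a floor, so this count cannot be set against a rate by chance. Cd79a was at 5.16 in Untreated JAK2V617F+ replicate 2, with every other JAK2V617F+ array at 2.22. Ebf1 was at 5.89 in TNFR2 BA JAK2V617F- replicate 2, with the next at 3.05. Cd79b was at 6.74 in Untreated JAK2V617F- replicate 1 (next 4.42) and at 3.15 in TNFR2 BA JAK2V617F+ replicate 1 (next 2.28). In Untreated JAK2V617F+ replicate 2, Vpreb3 was at 2.43 (next 2.23) and Ebf1 at 2.49 (next 2.22). That array was the highest JAK2V617F+ array for 3 of the 7 genes. Groups whose other arrays all lie at the floor have a narrow range, so that even a small rise above it is flagged.

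In the array left out of the fits, Untreated JAK2V617F+ replicate 3, Ighm was at 12.50, against a highest value of 9.44 in Untreated JAK2V617F- arrays, and Ebf1 was at 3.74, against 2.97. The other replicate 3 JAK2V617F+ arrays had Ighm at 12.58 and 11.07.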

How the results depend on the processing

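In the 5 kinds of comparison by genotype or antibody, 0 members were called under every alternative that was run. The count of all probe sets called over treatments, 37, was 67 with the replicate block and 11 by the methods' paired t-test, and it ran between 6 and 119 when arrays or a replicate number were left out (7 without replicate 1, 6 without replicate 2, 119 without Untreated JAK2V617F+ replicate 1). The replicate block or pairing changed no member's call, and by the methods' paired t-test 0 members passed after adjustment and 2 before it over treatments, where 970 of 10335 probe sets passed before it. The difference of Ighm was -0.078 with array weights and ran between -1.15 and 2.19 under leave-one-out, that of Igll1 between -2.97 and 0.73, and that of Cd79a between -2.08 and 0.31. Vpreb1 kept its sign, between -5.52 and -0.24, as did Vpreb3, between -2.76 and -0.82. The count of members called for the replicate number, 1, was 0 when variances had no trend (Vpreb1 adjusted p = 0.0712) and between 0 and 1 under leave-one-out, and that of all probe sets, 124, was 55 without a trend and between 0 and 135. Over all alternatives, the adjusted p of Vpreb1 ran between 0.0110 and 0.857. With all 18 arrays, the Untreated JAK2V617F+ means were 6.58 for Igll1, 6.34 for Ighm and 2.82 for Ebf1, against 8.36, 3.26 and 2.35. The filter on dim probe sets left out Vpreb3, Ighm, Cd79a, Cd79b and Ebf1. The causes were not tested. The number of arrays and the floor limit the precision.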
